A study of Mus musculus with 16 samples.

Results

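The endothelin system was followed through 4 genes, Edn1, Ece1, Ednra and Ednrb, taken by gene symbol from the 52636 genes of the deposited table, and all 4 passed the filter on low counts. The study sequenced total RNA of whole descending thoracic aorta, the chest part of the main artery, from mice of 2 strains, either as controls or with high blood pressure brought on by AngII (angiotensin II, the vasoconstrictor end product of the renin system). The 16 libraries fell into 4 groups of 4: C57BL/6J control, C57BL/6J AngII, 129S6/SvEvTac control and 129S6/SvEvTac AngII. Strain and treatment are all that the labels state of a mouse. AngII dose and duration, age, sex and any pooling of animals are not given in the labels used here. Nothing in the labels says that the libraries came from separate animals, so p-values measure only how these libraries scatter, which may be technical scatter.

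Endothelin-1, the product of Edn1, is made mainly by endothelial cells as a precursor that proprotein convertases and then the endothelin-converting enzyme, the product of Ece1, cut to the active peptide. The A receptor (Ednra), found on smooth muscle cells and fibroblasts, couples through Gq and other G proteins to calcium release, contraction and growth. The B receptor (Ednrb) occurs on endothelium, where it drives nitric oxide and prostacyclin release and removes the peptide from the circulation, and also on smooth muscle and other cells.

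Library totals ran from 42116120 to 61381134 counts in 15 libraries and reached 121573945 in 129S6/SvEvTac AngII replicate 5. The aortic wall was visible in its markers, since the 10 smooth muscle marker genes summed to 38431 to 48033 CPM (counts scaled to library totals that were adjusted by the TMM method) in 129S6/SvEvTac AngII and to 40664 to 44018 CPM in C57BL/6J controls. In C57BL/6J AngII that sum was lower, at 12884 to 30761 CPM, and the macrophage marker sum was higher, at 1124 to 2162 against 391 to 522 CPM in its controls. Adipocyte markers differed widely between libraries of this group, with sums from 234 to 3778 CPM. In whole tissue, fewer cells of a type and less RNA per cell cannot be told apart.

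On GRCm38, Edn1 (ENSMUSG00000021367.8) lies on chr13:42301476-42307990, plus strand, and Ece1 (ENSMUSG00000057530.14) on chr4:137862237-137965229, plus strand. Ednra (ENSMUSG00000031616.7) lies on chr8:77663031-77724464 and Ednrb (ENSMUSG00000022122.14) on chr14:103814625-103844402, both on the minus strand. Exons of Edn1 share 35 bases with the antisense gene Gm47118, and exons of Ednra share 91 bases with 4933431K23Rik on the opposite strand. The labels do not say whether counting used strand, so reads of those short overlaps could belong to either gene.

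The promoter windows of the 2 receptor genes are shown because both receptors rose in C57BL/6J, and that of Edn1 because the ligand gene was not called there. Each window is RefSeq sequence of GRCm38.p6, given 5′ to 3′ along the gene, with 250 bases before and 50 bases from the annotated start. By the RefSeq annotation the last 50 bases are transcribed. The gene coordinates given above come from another annotation, GENCODE M21. By GENCODE the whole Ednrb window lies inside the gene, whose 5′ end is at 103844402. Which start these aortas used was not tested. Capitals mark matches on either strand. The element bound by SMAD proteins was searched as GTCTG. The element of the GATA family was searched as GATAA. The core of the hypoxia response element was searched as ACGTG. The windows are chr13:42301226-42301525 (plus strand), chr8:77724403-77724702 (minus strand) and chr14:103843652-103843951 (minus strand).
Edn1: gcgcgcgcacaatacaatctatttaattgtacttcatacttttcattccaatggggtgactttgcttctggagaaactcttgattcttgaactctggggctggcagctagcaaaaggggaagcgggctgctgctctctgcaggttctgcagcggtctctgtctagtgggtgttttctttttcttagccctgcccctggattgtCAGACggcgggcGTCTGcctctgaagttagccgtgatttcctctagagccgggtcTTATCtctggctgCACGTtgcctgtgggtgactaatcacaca
Ednra: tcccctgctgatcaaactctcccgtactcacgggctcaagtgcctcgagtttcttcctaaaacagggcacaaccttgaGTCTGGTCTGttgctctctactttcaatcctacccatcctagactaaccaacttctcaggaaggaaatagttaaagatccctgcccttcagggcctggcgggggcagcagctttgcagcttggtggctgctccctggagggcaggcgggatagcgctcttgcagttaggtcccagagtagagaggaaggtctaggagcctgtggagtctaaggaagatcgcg
Ednrb: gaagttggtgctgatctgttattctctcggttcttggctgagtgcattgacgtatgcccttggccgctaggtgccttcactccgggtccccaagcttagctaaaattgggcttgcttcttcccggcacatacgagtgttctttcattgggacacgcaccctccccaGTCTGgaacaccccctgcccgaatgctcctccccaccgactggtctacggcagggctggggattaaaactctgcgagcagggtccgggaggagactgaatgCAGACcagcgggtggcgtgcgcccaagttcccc

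All 3 windows held GTCTG at 2 places. Positions are counted from the RefSeq start site, which for Ednrb is not the GENCODE start. The first bases of these matches lay at -47 and -35 in Edn1 and at -84 and 18 in Ednrb. In Ednra they lay side by side, at -172 and -167. GTCTG is common, occurring in 49.6% of the 32851 promoter windows of the same length. In Edn1 the GATAA match began at 9 and the ACGTG match at 22, both on the strand opposite to the gene; 25.4% and 19.6% of all windows held these letters. Neither receptor window held them. None of the 3 windows held TATAAA (13.6% of all windows), TGANTCA (an AP-1 element, 7.81%) or a CArG box (1.63%). Other forms of these elements were not searched. The GC content was 51.3% for Edn1, 54.7% for Ednra and 58.7% for Ednrb, against a median of 52.7% over all windows. A match is a description of letters, the reference is not 129S6/SvEvTac sequence, and the promoters of that strain were not analysed here.

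With AngII, the 2 receptors rose in C57BL/6J aorta by 2.24 (Ednra) and 2.14 (Ednrb) on the log2 scale, whereas Edn1 and Ece1 differed from control by less than their error. In 129S6/SvEvTac aorta Ece1 rose by 0.85, and the ligand and both receptors did not pass the test. The 2 receptors were 2 of 4 genes called in C57BL/6J, beside 38.9% of all 17125 genes tested. Of the 4 genes, Ednra was called different in its AngII response between the strains.

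The ligand gene Edn1 was measured at 14.4, 15.2, 19.5 and 43.8 CPM in C57BL/6J control replicates 1, 2, 3 and 5, and at 17.6, 23.1, 24.6 and 22.8 CPM in C57BL/6J AngII replicates 1, 2, 3 and 5. In 129S6/SvEvTac, control replicates 1, 2, 3 and 4 gave 42.4, 28.7, 36.4 and 23.6 CPM for Edn1, and AngII replicates 1, 2, 4 and 5 gave 30.1, 77.8, 25.7 and 54.1 CPM. Control replicate 5 stood apart in C57BL/6J and AngII replicates 2 and 5 in 129S6/SvEvTac, and the AngII and control values overlapped in both strains. The log2 fold change of Edn1 with AngII was -0.08 ± 0.37 (SE, n = 4 per group) in C57BL/6J, with a 95% interval from -0.86 to 0.71 and an adjusted p of 0.894 from edgeR's quasi-likelihood test. In 129S6/SvEvTac it was 0.52 ± 0.37, with an interval from -0.27 to 1.30 and an adjusted p of 0.423. These intervals leave room for a change of either sign, and the difference between the strains' responses, -0.59 ± 0.52, did not pass the test (edgeR adjusted p = 0.525). Without C57BL/6J control replicate 5 the Edn1 value in C57BL/6J turned to 0.41, with an edgeR adjusted p of 0.345.

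Between AngII-treated aortas of the 2 strains, Edn1 differed. All 4 C57BL/6J AngII libraries lay below all 4 129S6/SvEvTac AngII libraries (at most 24.6 against at least 25.7 CPM), with a log2 difference of -1.09 ± 0.37 and an edgeR adjusted p of 0.0365. The gap between the groups was narrow, and the call did not hold when any C57BL/6J AngII replicate, or 129S6/SvEvTac AngII replicate 2 or 5, was left out (values from -0.73 to -1.27 over all 16 omissions, edgeR adjusted p from 0.0115 to 0.154). In the controls the strains overlapped, with a difference of -0.50 ± 0.37 and an edgeR adjusted p of 0.486. Endothelial markers moved with Edn1 in the 129S6/SvEvTac AngII group. Their score, the mean log2 CPM of 14 genes, was 6.11 in replicate 2 and 5.72 in replicate 5 of that group. These 2 libraries had the highest Edn1, and the other 2 had scores of 5.05 to 5.16. The extremes lay the other way in C57BL/6J AngII, where replicate 1 had the lowest Edn1 and the highest score (5.62). Replicate 3 had the highest Edn1 and the lowest score there (5.23). The 14 genes summed to 1166 to 3583 CPM in 129S6/SvEvTac AngII and to 1247 to 1597 CPM in C57BL/6J AngII, and none was at 0 in any group. Of the 14, 4 were called lower in C57BL/6J AngII than in 129S6/SvEvTac AngII and none higher. Of all genes, 31.3% were called in either direction, so this count was near the background. The mean endothelial score was 5.43 in C57BL/6J AngII and 5.51 in 129S6/SvEvTac AngII. With the endothelial score as a term in the edgeR fit, an alternative chosen after seeing the data, the Edn1 difference was -0.83 and missed the threshold (adjusted p = 0.0545). As a plain ratio to this score, Edn1 was lower in C57BL/6J AngII by 0.88 on the log2 scale (log2 difference -0.88), with no overlap of the libraries. The two-sided exact permutation p of that ratio was 0.0286, the smallest that 4 against 4 can give. After adjustment over 16 such ratio tests it was 0.152 and did not pass. A single ratio at the smallest p cannot pass that adjustment, however large it is, so the miss says nothing about Edn1.

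**Figure D1:**
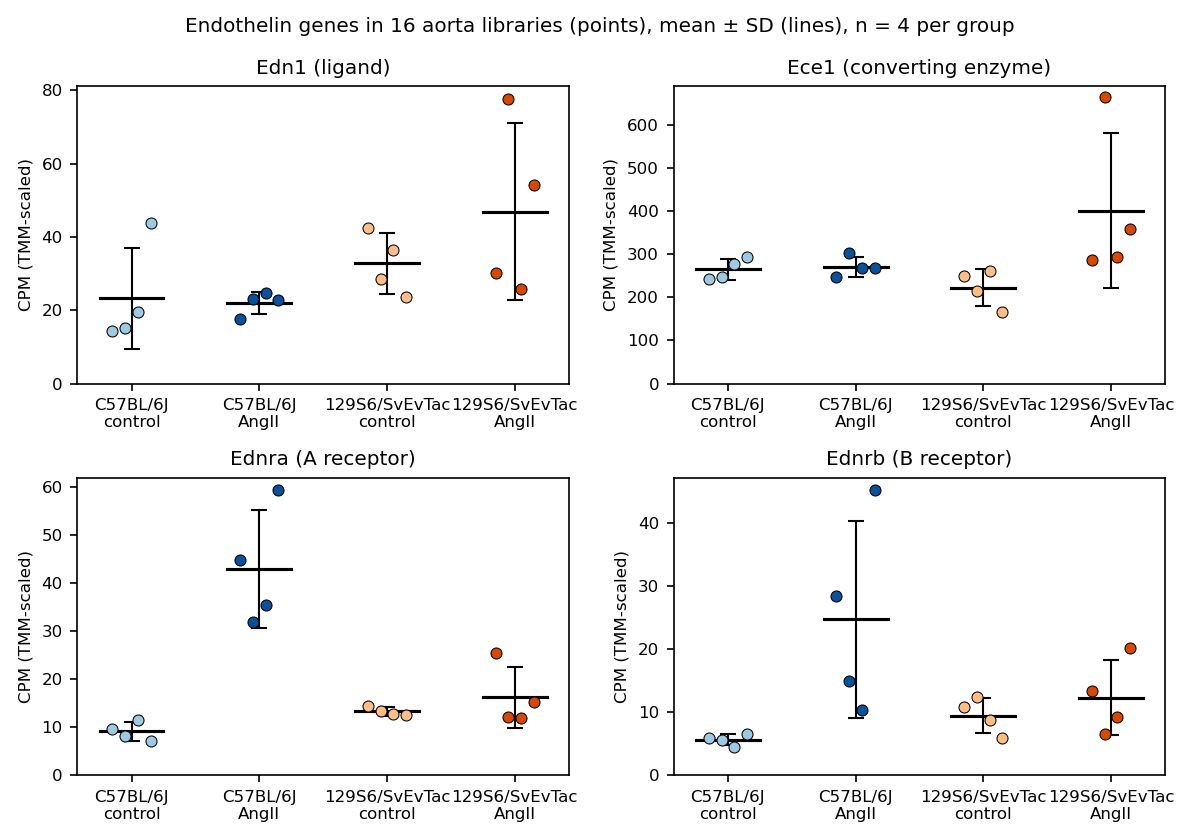
Levels of Edn1, Ece1, Ednra and Ednrb in CPM (vertical axes start at 0) in each of the 16 libraries, with the mean and SD of each group of 4. The C57BL/6J AngII points for Ednra (31.8 to 59.3 CPM) and Ednrb (10.3 to 45.2 CPM) lie above all C57BL/6J controls, and 129S6/SvEvTac AngII replicate 2 stands highest for Edn1 and Ece1.

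Ece1, the gene of the membrane protease that makes the active peptide, was the most abundant of the 4. It was measured at 242, 248, 277 and 294 CPM in C57BL/6J control replicates 1, 2, 3 and 5 and at 246, 302, 269 and 269 CPM in AngII replicates 1, 2, 3 and 5. These values overlapped throughout, and the Ece1 log2 fold change of 0.03 ± 0.22 had a 95% interval from -0.44 to 0.50 (edgeR adjusted p = 0.924). In 129S6/SvEvTac, Ece1 stood at 250, 215, 261 and 166 CPM in control replicates 1, 2, 3 and 4 and at 287, 666, 293 and 359 CPM in AngII replicates 1, 2, 4 and 5. All 4 AngII libraries lay above all 4 controls, and AngII replicate 2 was far above the others of its group. Ece1 rose by 0.85 ± 0.22 on the log2 scale, a fold of 1.80 with an edgeR adjusted p of 0.0217. It was the only 1 of the 4 genes called in this comparison, beside 12.2% of all 17125 genes tested, and the only 1 whose libraries did not overlap, beside 23.0%.

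The call of Ece1 in 129S6/SvEvTac held in 13 of 16 omissions of a library. Without AngII replicate 2 the log2 change was 0.48, with an edgeR adjusted p of 0.0537, and the call was also lost without control replicate 2 (0.81, adjusted p = 0.0643) or control replicate 4 (0.71, adjusted p = 0.0779). Endothelial markers moved with it: AngII replicate 2 had the highest Ece1 and, at 6.11, the highest endothelial score of all 16 libraries, and control replicate 4 had the lowest of both, with a score of 4.75. With that score as a term in the edgeR fit the change was 0.40 with an adjusted p of 0.172. The responses of the strains were not shown to differ for Ece1 (-0.81 ± 0.31, edgeR adjusted p = 0.115), nor did the strains differ beyond the threshold in controls (0.25 ± 0.22, adjusted p = 0.577) or with AngII (-0.56 ± 0.22, adjusted p = 0.0666). With the endothelial score as a term, the difference of responses (edgeR adjusted p = 0.0443) and that between AngII groups were called. The latter was also called with the replicate number as a block. It stayed uncalled in 14 of 16 omissions, but not without 129S6/SvEvTac AngII replicate 1 (-0.67, edgeR adjusted p = 0.0359) or 4 (-0.67, 0.0420).

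Enzyme and ligand could also be compared within a library, where scaling between libraries plays no part. The log2 ratio of Ece1 to Edn1 counts averaged 3.67 ± 0.62 (SD, n = 4) in C57BL/6J controls, 3.63 ± 0.16 in C57BL/6J AngII, 2.78 ± 0.15 in 129S6/SvEvTac controls and 3.15 ± 0.33 in 129S6/SvEvTac AngII. The C57BL/6J values were the higher ones in 3 of 4 controls, with replicate 5 at 2.75 within the 129S6/SvEvTac range of 2.56 to 2.91. The differences were 0.89 between control groups (exact permutation p = 0.114) and 0.48 between AngII groups (exact permutation p = 0.0571), neither of which passed adjustment (0.261 and 0.183).

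The A receptor gene Ednra was low in C57BL/6J controls, at 9.62, 8.20, 11.5 and 7.02 CPM in replicates 1, 2, 3 and 5, and stood at 44.7, 31.8, 35.4 and 59.3 CPM in AngII replicates 1, 2, 3 and 5. The lowest AngII library was thus well above the highest control. In 129S6/SvEvTac, Ednra was measured at 14.5, 13.3, 12.6 and 12.5 CPM in control replicates 1, 2, 3 and 4 and at 25.5, 12.0, 11.9 and 15.2 CPM in AngII replicates 1, 2, 4 and 5. There AngII replicate 1 was the high library and the other 3 lay about the controls.

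Ednra rose by 2.24 ± 0.25 on the log2 scale with AngII in C57BL/6J, a fold of 4.71 with a 95% interval from 1.70 to 2.77 in log2 and an edgeR adjusted p of 1.05e-05. In 129S6/SvEvTac the value was 0.29 ± 0.24, with an interval from -0.23 to 0.80 and an adjusted p of 0.505. The strains' responses differed by 1.95 ± 0.34 (edgeR adjusted p = 0.00412); Ednra was 1 of 4 genes called for this difference, beside 9.96% of all genes tested. The call held in each of the 16 omissions of a library (1.76 to 2.28) and in all other fits, with the lowest value, 1.57, in the fit that held the fibroblast score as a term.

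Strain levels of Ednra crossed between treatments. In the controls all 4 C57BL/6J libraries lay below all 4 129S6/SvEvTac libraries (at most 11.5 against at least 12.5 CPM), the only 1 of the 4 genes to do so, beside 22.3% of all genes tested. The difference, -0.54 ± 0.24, did not pass the threshold (edgeR adjusted p = 0.197), and none of the 4 genes did, beside 10.4% of all genes. By unadjusted edgeR p, 1 of the 4 was below 0.05, Ednra at 0.0416, beside 3871 of all 17125 genes tested. DESeq2 and limma voom called none of the 4 either. In a fit of the 2 control groups alone the Ednra difference was -0.55 with an edgeR adjusted p of 0.0286. Mesothelial markers, of the lining of the chest cavity, also differed between the control groups: all 7 were lower in C57BL/6J (median log2 difference -5.64), with sums of 0.282 to 2.35 CPM against 16.5 to 81.6 CPM, and Wt1 was at 0 in all C57BL/6J controls. Within groups, the mesothelial score and Ednra had r = 0.63 over the 16 libraries, and 0.10 before group means were subtracted. The part of these markers in the Ednra strain difference was not tested. With AngII, Ednra was higher in C57BL/6J by 1.41 ± 0.24 (edgeR adjusted p = 0.000486), again without overlap. Ednra and Edn1 were the 2 of 4 genes called between the AngII groups, beside 31.3% of all genes, and the 2 whose libraries did not overlap, beside 27.0%.

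The B receptor gene Ednrb was the scarcest of the 4 in C57BL/6J controls, at 5.95, 5.50, 4.45 and 6.54 CPM in replicates 1, 2, 3 and 5, and spread widely with AngII, at 28.4, 14.9, 10.3 and 45.2 CPM in replicates 1, 2, 3 and 5. The groups did not overlap, and AngII replicates 1 and 5 were the high libraries. In 129S6/SvEvTac, Ednrb stood at 10.9, 12.4, 8.67 and 5.86 CPM in control replicates 1, 2, 3 and 4 and at 13.3, 6.51, 9.27 and 20.1 CPM in AngII replicates 1, 2, 4 and 5, which overlapped.

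Ednrb rose by 2.14 ± 0.43 on the log2 scale with AngII in C57BL/6J, a fold of 4.40 with an edgeR adjusted p of 0.00105. With Ednra, it made 2 of 4 genes called higher, beside 21.8% of all genes tested, and 2 of 4 without overlap, beside 35.2%. The call held in all 16 omissions (1.66 to 2.41). Without the 2 high libraries together, replicates 1 and 5, Ednrb was up by 1.15 with an adjusted p of 0.0320, while Ednra was up by 1.87 (adjusted p = 0.000150). With the adipocyte score as a term the Ednrb value was 0.98 (edgeR adjusted p = 0.0933), and with the fibroblast score, a fit added after seeing the data, 0.97 (adjusted p = 0.132), so in these fits it was no longer called. Ednra kept its call in both, at 1.93 and 1.54.

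In 129S6/SvEvTac the Ednrb change with AngII was 0.39 ± 0.41, with an interval from -0.49 to 1.26 and an edgeR adjusted p of 0.612. The difference of the strains' responses was 1.75 ± 0.58 (interval from 0.51 to 2.99), which missed the threshold at an edgeR adjusted p of 0.0706. DESeq2 called it (1.78, adjusted p = 0.0186), and so did limma voom (1.90, adjusted p = 0.0330). Without C57BL/6J AngII replicates 1 and 5 it was 0.78 (edgeR adjusted p = 0.404). Between strains Ednrb was lower in C57BL/6J by 0.75 ± 0.42 in controls (log2 difference -0.75, edgeR adjusted p = 0.315) and higher by 1.0 ± 0.41 with AngII (adjusted p = 0.0777), neither past the threshold. The value with AngII ranged from 0.0276 to 1.31 over 14 other settings and stayed uncalled in 11 of them. It stayed uncalled in 14 of 16 omissions, but not without C57BL/6J AngII replicate 3 (1.29, edgeR adjusted p = 0.0177) or 129S6/SvEvTac AngII replicate 5 (1.38, 0.0292).

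**Figure D2:**
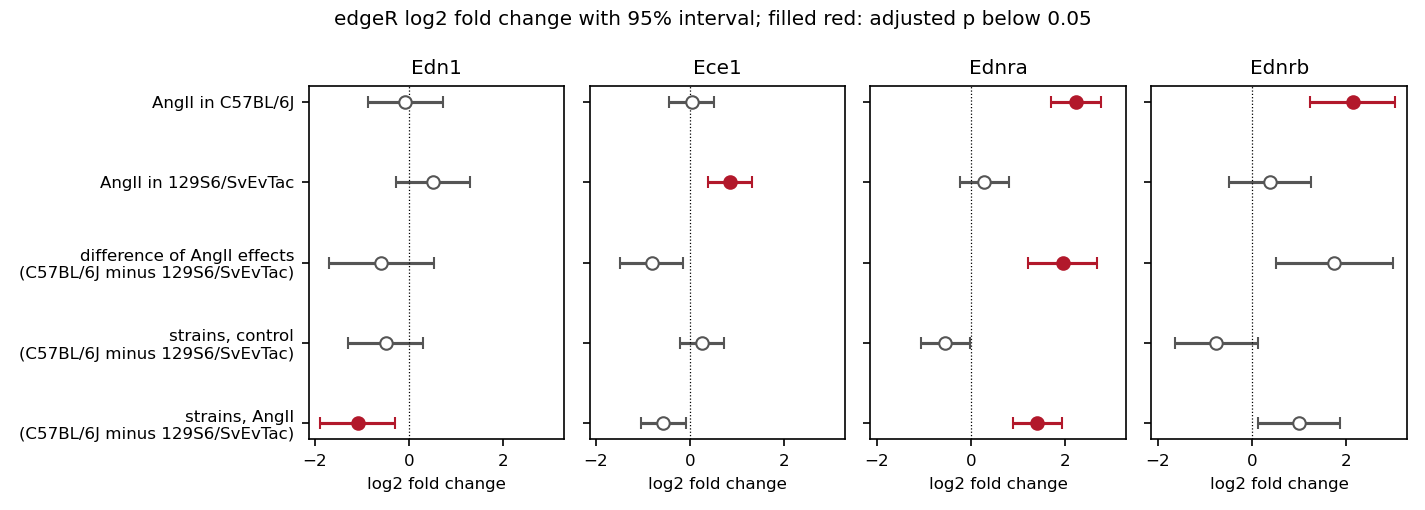
Log2 fold changes of the 4 genes in the 5 comparisons with their 95% intervals (horizontal axis), filled red where the edgeR adjusted p was below 0.05. Ednra was called in 3 of the 5 comparisons, Ednrb, Ece1 and Edn1 in 1 each.

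No shift in the balance of the receptors within a library was shown. The log2 ratio of Ednra to Ednrb counts was 0.69 ± 0.52 (SD, n = 4) in C57BL/6J controls and 0.98 ± 0.61 with AngII, and 0.54 ± 0.41 and 0.44 ± 0.62 in 129S6/SvEvTac. The C57BL/6J difference of 0.29 had an exact permutation p of 0.486 (adjusted 0.777). Ednra set over the smooth muscle score was higher with AngII in C57BL/6J by 3.35 on the log2 scale and higher in C57BL/6J than in 129S6/SvEvTac with AngII by 2.77, both without overlap and with an exact permutation p of 0.0286 (adjusted 0.152); the smooth muscle score itself was lower there.

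Levels of different genes were compared per exon length, as TPM (transcript abundance scaled to exon length and library total) computed from the gene counts. In C57BL/6J controls the order was Ece1 (172 ± 14.8 TPM, SD, n = 4), Edn1 (37.2 ± 22.2), Ednra (5.69 ± 1.10) and Ednrb (4.52 ± 0.75). The receptors overlapped each other in all 4 groups by this measure. By the length of the longest transcript instead, they did not overlap in either control group. Ednra was then at least 5.31 TPM in C57BL/6J controls, against at most 4.37 TPM for Ednrb. In 129S6/SvEvTac controls these values were 9.26 and 8.18 TPM. In C57BL/6J AngII, Ece1 (169 ± 16.9 TPM) remained highest, and Edn1 (34.1 ± 5.42), Ednra (25.9 ± 7.81) and Ednrb (19.2 ± 12.5) overlapped. By the longest transcript in place of merged exons, Edn1 (27.2 TPM) was there below Ednra (31.2 TPM). In 129S6/SvEvTac controls the values were 143 ± 31.4 TPM for Ece1, 52.1 ± 13.8 for Edn1, 8.18 ± 0.53 for Ednra and 7.50 ± 2.22 for Ednrb. With AngII they were 237 ± 93.8, 68.3 ± 31.7, 9.52 ± 4.46 and 9.19 ± 4.36 TPM in the same order. In both 129S6/SvEvTac groups every library had more Edn1 than any library had of either receptor.

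**Figure D3:**
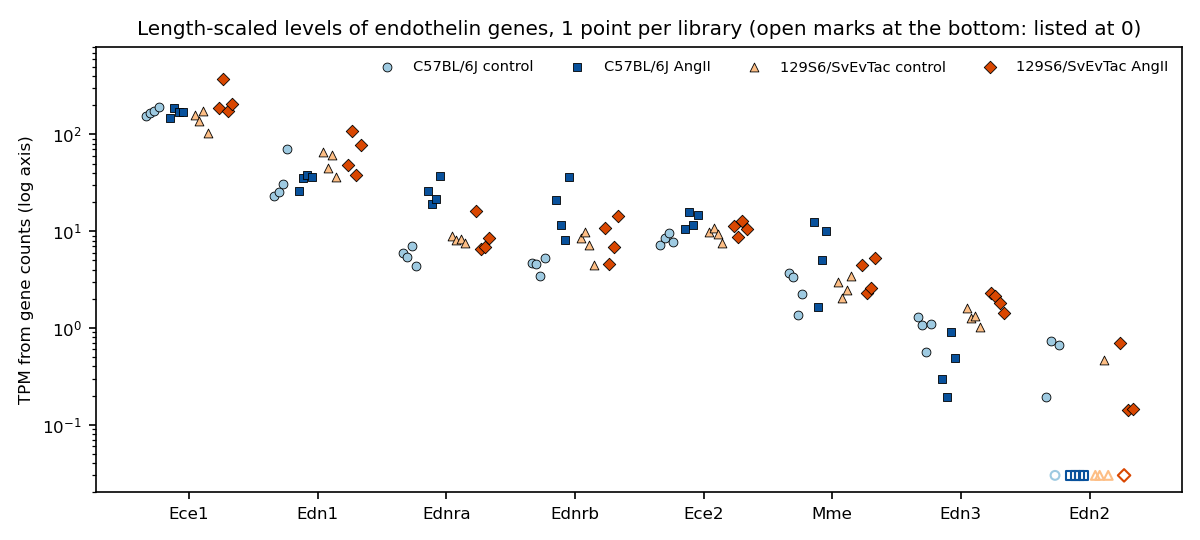
Length-scaled levels (TPM from gene counts, log axis) of the 4 genes and of Ece2, Mme, Edn3 and Edn2 in each library, with open marks at the bottom for libraries at 0. In C57BL/6J AngII the receptor points reach into the range of Edn1, which lies above them in the other 3 groups.

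The other ligands were scarce. Edn2, the gene of endothelin-2, fell below the filter, with 33 counts over the 4 C57BL/6J control libraries, 9 in 129S6/SvEvTac controls, 24 in 129S6/SvEvTac AngII and none in C57BL/6J AngII, where a count of 0 allows up to 3 counts a library. Edn3, whose peptide binds the B receptor in preference to the A receptor, averaged 1.20 ± 0.36 CPM (SD, n = 4) in C57BL/6J controls and 0.58 ± 0.38 with AngII, and 1.59 ± 0.29 and 2.50 ± 0.45 CPM in 129S6/SvEvTac. Its fall with AngII in C57BL/6J, -1.04 ± 0.39 on the log2 scale (edgeR adjusted p = 0.0458), held in only 2 of the 16 omissions of a library. Edn3 was lower in C57BL/6J than in 129S6/SvEvTac with AngII by -2.09 ± 0.40 (edgeR adjusted p = 0.000919), with no overlap between the groups (at most 1.11 against at least 1.93 CPM).

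Of 13 genes for other ligands and for peptide processing, 10 were tested, and in C57BL/6J 5 rose and 1 fell with AngII (median log2 change 0.35 over the 10, 0.01 over all genes), beside 21.8% of all genes called higher and 17.1% called lower. Furin, a convertase that cuts the endothelin precursor, rose from 135 ± 9.14 to 177 ± 23.5 CPM (0.39 ± 0.09, edgeR adjusted p = 0.00400) and in 129S6/SvEvTac from 123 ± 8.38 to 156 ± 11.7 CPM (0.34 ± 0.09, adjusted p = 0.0275). It was the only gene of the list called there, beside 7.71% of all genes called higher and 4.47% called lower, and that call held in 8 of 16 omissions. Ece2, a relative of Ece1, rose from 12.3 ± 1.72 to 20.4 ± 3.53 CPM in C57BL/6J (0.73 ± 0.15, edgeR adjusted p = 0.00128), but shares 2937 of its 5110 exon bases with Gm49333, so its counts are uncertain. Mme, which encodes neprilysin, a peptidase that degrades endothelin-1, went from 8.85 ± 3.43 to 25.8 ± 17.7 CPM in C57BL/6J (1.54 ± 0.49, edgeR adjusted p = 0.0198). The Mme libraries overlapped, its AngII values ranging from 5.80 to 45.7 CPM, and the call was lost without AngII replicate 1 or 5 or control replicate 3 or 5. It held in 8 of 14 other settings and was lost with the adipocyte score (edgeR adjusted p = 0.549), the endothelial score (0.115) or the fibroblast score (0.254) as a term and without AngII replicates 1 and 5 together (0.592). The C57BL/6J calls of Furin and Ece2 were each lost in 1 of 14, with the adipocyte score (0.069) and the fibroblast score (0.0565).

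The mast cell proteases Cma1 and Mcpt4, of the chymase family that can form active endothelin outside the Ece1 route, also rose in C57BL/6J. Cma1 went from 1.74 ± 1.40 to 11.2 ± 8.35 CPM (2.69 ± 0.66, edgeR adjusted p = 0.00471) and Mcpt4 from 2.82 ± 2.73 to 14.9 ± 11.4 CPM (2.39 ± 0.64, adjusted p = 0.00774). Both overlapped their controls. These calls held in all 16 omissions, but not with the adipocyte score as a term (edgeR adjusted p = 0.289 for Cma1 and 0.330 for Mcpt4), with the fibroblast score (0.0745 and 0.114) or without AngII replicates 1 and 5 together (0.125 and 0.224), nor for Mcpt4 with the endothelial score (0.0796). In 129S6/SvEvTac they stood at -0.62 ± 0.63 and -0.51 ± 0.61 in log2 (adjusted p = 0.593 and 0.658). The strains' responses differed by 3.31 ± 0.91 for Cma1 (edgeR adjusted p = 0.0323) and 2.90 ± 0.88 for Mcpt4 (adjusted p = 0.0481), calls that held in 6 and 4 of 16 omissions.

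Among 32 genes of receptor signalling, 31 were tested. In C57BL/6J 6 rose and 9 fell with AngII (median -0.07), beside 21.8% of all genes called higher and 17.1% called lower. In 129S6/SvEvTac 2 rose and 1 fell (median 0.11), beside 7.71% and 4.47% of all genes, which is near the background. Of the 31, 2 differed in response between the strains, both with the higher value in C57BL/6J, beside 5.34% of all genes called higher and 4.62% called lower. Prkca, the classical protein kinase C alpha activated below Gq, rose in both strains, by 0.69 ± 0.10 in C57BL/6J (29.6 ± 0.96 to 48.0 ± 7.24 CPM, edgeR adjusted p = 5.32e-05) and by 0.60 ± 0.10 in 129S6/SvEvTac (40.7 ± 2.07 to 61.8 ± 5.75 CPM, adjusted p = 0.000921). Gna13, the gene of a G protein alpha subunit, rose in C57BL/6J by 0.55 ± 0.08 (edgeR adjusted p = 5.36e-05) against 0.14 ± 0.08 in 129S6/SvEvTac, a difference of 0.41 ± 0.11 (adjusted p = 0.0266), whereas Gna12, the G12 subunit, fell in both, at -0.31 ± 0.07 and -0.24 ± 0.07. The Gna13 difference was lost without C57BL/6J control replicate 5 or 129S6/SvEvTac control replicate 3 and with the replicate number as a block (edgeR adjusted p = 0.0596). The Gna12 fall in 129S6/SvEvTac was lost in 3 of 16 omissions, without a filter (0.0535) and with the endothelial score as a term (0.111). Itpr1, the calcium release channel of smooth muscle, fell from 457 ± 39.7 to 229 ± 98.1 CPM in C57BL/6J (-0.998 ± 0.20, adjusted p = 0.00120).

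Arrb2, which encodes the receptor-desensitising protein beta-arrestin 2, rose in C57BL/6J from 11.7 ± 1.24 to 19.3 ± 2.84 CPM (0.72 ± 0.12, edgeR adjusted p = 0.000332), and its response differed from that in 129S6/SvEvTac by 0.59 ± 0.18 (adjusted p = 0.0432), a call held in 6 of 16 omissions. Grk5, a G protein-coupled receptor kinase, rose in 129S6/SvEvTac from 60.3 ± 3.25 to 99.6 ± 11.7 CPM (0.72 ± 0.15, edgeR adjusted p = 0.00504) and stood at 0.33 ± 0.15 in C57BL/6J (adjusted p = 0.0860). The difference between these Grk5 responses, -0.39 ± 0.21, did not pass the test (adjusted p = 0.250).

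Of the 7 genes of nitric oxide and prostacyclin, the outputs of the endothelial B receptor and their targets, 4 fell with AngII in C57BL/6J and 3 did not pass (median -0.50), beside 17.1% of all genes called lower. In 129S6/SvEvTac 1 rose and 1 fell (median -0.05), beside 7.71% of all genes called higher and 4.47% lower. In C57BL/6J 9 of 10 smooth muscle markers fell with AngII too (median -1.01). Their part in the falls of these genes was not tested. Gucy1a1 and Gucy1b1, the subunits of the nitric oxide receptor guanylate cyclase, fell in C57BL/6J from 300.3 ± 26.5 to 104 ± 58.4 CPM and from 291 ± 9.98 to 118 ± 56.96 CPM (log2 -1.53 ± 0.26 and -1.30 ± 0.23, edgeR adjusted p = 0.000292 and 0.000387). Gucy1a1 fell in 129S6/SvEvTac as well (-1.17 ± 0.26, edgeR adjusted p = 0.00788), and Gucy1b1 stood there at -0.62 ± 0.23 (adjusted p = 0.0876). With the endothelial score as a term, the Gucy1a1 call in 129S6/SvEvTac was lost (adjusted p = 0.0533). Ptgis, the prostacyclin synthase gene, moved in opposite directions: it fell from 915 ± 62.9 to 648 ± 105 CPM in C57BL/6J (-0.50 ± 0.10, edgeR adjusted p = 0.00118) and rose from 748 ± 15.9 to 1081 ± 71.6 CPM in 129S6/SvEvTac (0.53 ± 0.10, adjusted p = 0.00336). That difference of -1.03 ± 0.14 (adjusted p = 0.00117) held in all 16 omissions.

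Cav1, the caveolin gene whose protein binds and restrains endothelial nitric oxide synthase, fell from 79.3 ± 5.05 to 49.7 ± 6.39 CPM in C57BL/6J (-0.67 ± 0.12, edgeR adjusted p = 0.000371) and stood at 0.13 ± 0.12 in 129S6/SvEvTac (adjusted p = 0.550). The difference of -0.80 ± 0.17 (adjusted p = 0.00886) held in all 16 omissions. Nos3, the synthase itself, did not pass in either strain with AngII (-0.33 ± 0.25 and 0.47 ± 0.25, edgeR adjusted p = 0.323 and 0.257), and was higher in C57BL/6J than in 129S6/SvEvTac controls (42.5 ± 5.599 against 23.7 ± 7.36 CPM, 0.85 ± 0.25, adjusted p = 0.0435). That Nos3 call held in 8 of 16 omissions and 8 of 14 other settings, with an edgeR adjusted p of 0.118 without C57BL/6J control replicate 5 and 0.142 with the replicate number as a block. Exons of Nos3 overlap those of other genes, so its counts are uncertain.

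Of 10 transcription regulators of Edn1, 3 rose and 3 fell with AngII in C57BL/6J (median -0.20), not far from the 21.8% of all genes called higher and 17.1% called lower. In 129S6/SvEvTac 1 rose and 2 fell (median -0.06), beside 7.71% and 4.47% of all genes, and Edn1 itself was called in neither strain. Klf4, a Kruppel-like factor active in vessel cells, rose in C57BL/6J from 76.2 ± 15.2 to 154 ± 19.2 CPM (1.02 ± 0.13, edgeR adjusted p = 2.51e-05) against 0.14 ± 0.13 in 129S6/SvEvTac, a difference of 0.88 ± 0.18 (adjusted p = 0.00833) that held in all 16 omissions. Its relative Klf2, the flow-responsive endothelial factor, did not pass with AngII in either strain (0.60 ± 0.24 and -0.10 ± 0.24, edgeR adjusted p = 0.0627 and 0.849) but was higher in C57BL/6J among AngII aortas by 1.02 ± 0.24 (adjusted p = 0.00510). Hif1a, the hypoxia-inducible factor, rose in both strains, by 0.81 ± 0.09 and 0.49 ± 0.09 (edgeR adjusted p = 7.61e-06 and 0.00226).

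The remaining called regulators were called in 1 strain each. In C57BL/6J, Vezf1, a zinc finger factor of endothelium, fell by 0.60 ± 0.12 in log2 (edgeR adjusted p = 0.000916), and Nfatc1, a calcineurin-dependent factor, rose by 0.68 ± 0.15 (adjusted p = 0.00178). In 129S6/SvEvTac, Smad3, which carries TGF-beta signals, fell by 0.62 ± 0.11 (edgeR adjusted p = 0.00143), and Jun, an AP-1 subunit, fell by 1.35 ± 0.32 (adjusted p = 0.0127, and 0.0515 with the endothelial score as a term). The strains' responses differed by 0.71 ± 0.21 for Nfatc1 (edgeR adjusted p = 0.0422, held in 4 of 16 omissions) and by 0.55 ± 0.15 for Smad3 (adjusted p = 0.0295, held in 9); for Vezf1 (-0.45 ± 0.17) and Jun (0.72 ± 0.45) the difference did not pass (adjusted p = 0.0945 and 0.342). Exons of Furin, Arrb2, Gna12, Gna13, Itpr1, Prkca, Ptgis, Hif1a and Jun overlap those of other genes over part of their length, so a share of their counts is uncertain.

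**Figure D4:**
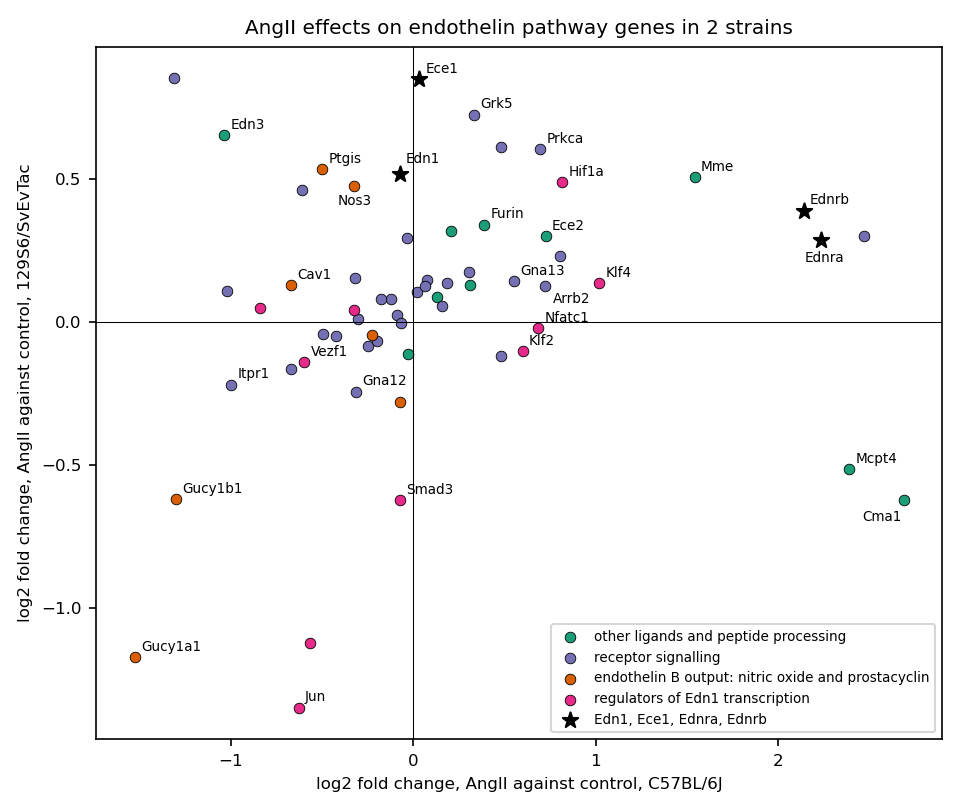
Log2 fold changes with AngII in C57BL/6J (horizontal) and 129S6/SvEvTac (vertical), 1 point per tested pathway gene coloured by list, with the 4 endothelin genes as stars. Ednra and Ednrb lie far to the right and near 0 vertically, Ece1 lies high near 0 horizontally, and Gucy1a1 is low in both; the strains have separate controls.

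Among the 4 genes themselves, levels over the 16 libraries were alike in 2 pairs, described here as Pearson correlations of log2 CPM without a test, since libraries of a group share strain and treatment. Ednra and Ednrb had r = 0.83, and 0.53 once each group's mean was subtracted. Edn1 and Ece1 had r = 0.66, and 0.79 within groups. Across the pairs, ligand or enzyme against receptor, r lay between -0.19 and 0.02, and between -0.35 and -0.02 within groups. The receptors thus varied with each other more than with the ligand or its enzyme.

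Cell marker scores were set beside the members in the same way. Ece1 followed the endothelial score (r = 0.78, 0.79 within groups) and Edn1 followed it less closely (0.54 and 0.63). Ednra followed the fibroblast score (0.85, 0.75 within groups) and the macrophage score (0.85, 0.64) alike, the adipocyte score less (0.64, 0.40), and ran opposite to the smooth muscle score (-0.80, -0.31 within groups). Ednrb followed the same scores: fibroblast (0.79, 0.67 within groups), macrophage (0.74, 0.88) and adipocyte (0.82, 0.71), with the Schwann cell score at 0.70 and 0.69. It too ran opposite to the smooth muscle score (-0.70, -0.62 within groups). These scores thus had the same sign for both receptors, but differed in size within groups. With Ednra the Schwann cell score had r = 0.54, and 0.37 within groups. In C57BL/6J, the fits above with the adipocyte or fibroblast score kept the Ednra call and lost that of Ednrb. Within the 129S6/SvEvTac AngII group, replicate 1 had the highest Ednra and the highest fibroblast score of its group (7.42). It was also highest there for the mural and pericyte (8.74) and mesothelial (1.83) scores. Replicate 5 had the highest Ednrb and adipocyte score (6.14). It also had the highest macrophage (4.71), Schwann cell (1.49), melanocyte (0.70) and striated muscle (2.97) scores of the group.

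In C57BL/6J these scores moved with the receptors under AngII. Of the fibroblast markers 6 of 10 rose and 1 fell, with the sum at 2765 to 4374 against 1918 to 2221 CPM in controls. All 10 macrophage markers and 9 of 10 adipocyte markers rose, 3 of 10 Schwann cell markers rose and 1 fell, and 9 of 10 smooth muscle markers and 4 of 7 mural and pericyte markers fell. Of the 14 endothelial markers 3 rose and 2 fell, and 2 of 7 mesothelial markers rose. Of all genes, 21.8% were called higher and 17.1% lower, so the counts of Schwann cell, endothelial and mesothelial markers were near the background. In 129S6/SvEvTac, 3 of 14 endothelial markers, 2 of 10 fibroblast markers and 1 of 7 mural and pericyte markers rose, beside 7.71% of all genes, and median log2 changes were 0.31 for macrophage, 0.64 for adipocyte and 0.04 for smooth muscle markers. Of 7 markers of melanocytes, a cell type known for Ednrb, 3 were tested, and Tyr, Tyrp1, Dct and Slc45a2 were at 0 in all C57BL/6J controls. The part of these cell markers in the receptor results was not tested beyond the fits with the adipocyte, endothelial and fibroblast scores given above.

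**Figure D5:**
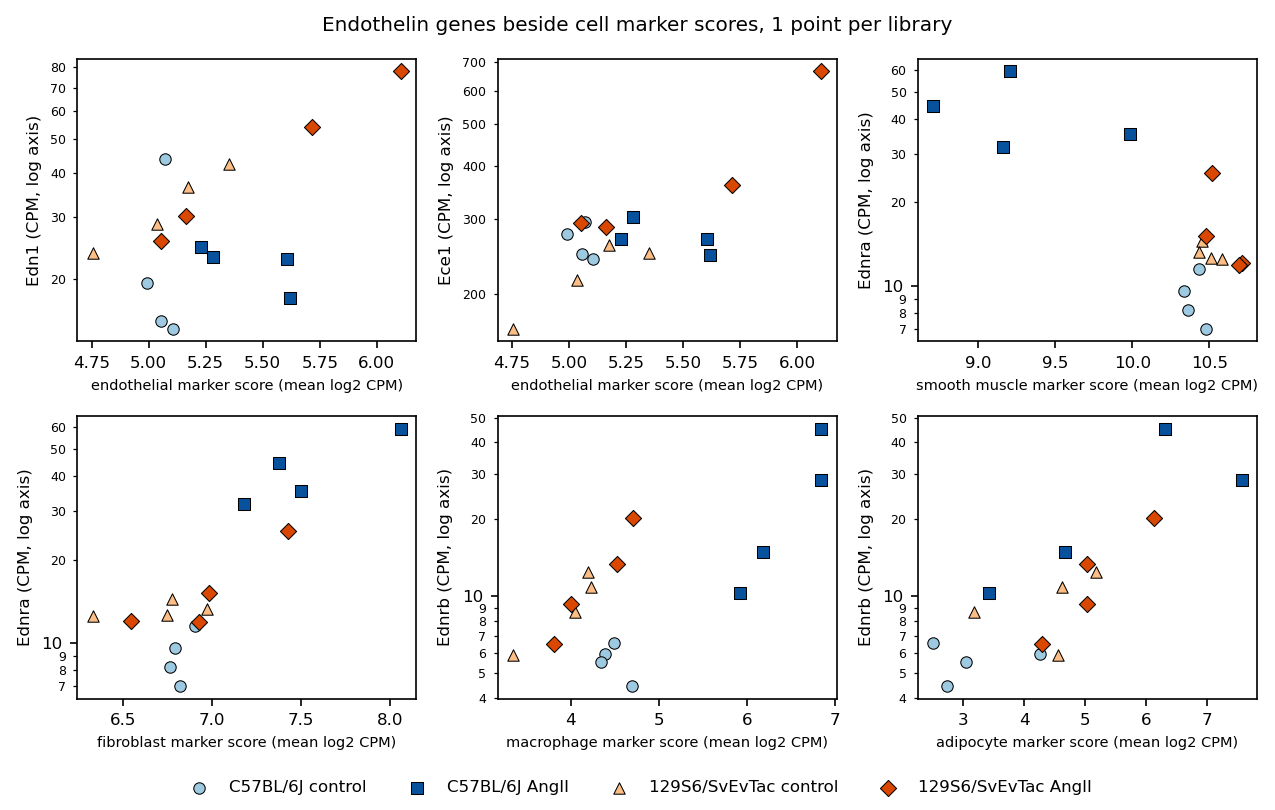
Each member's CPM (log axis) against a cell marker score (mean log2 CPM), 1 point per library. The C57BL/6J AngII squares for Ednra lie at low smooth muscle scores (8.71 to 9.99) and high fibroblast scores (7.18 to 8.06), and 129S6/SvEvTac AngII replicate 2 lies at the far end of the endothelial score for Edn1 and Ece1.

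The genes most alike to each member were sought among 10523 genes that averaged 5 CPM or more, by Pearson's r of log2 CPM over the 16 libraries. For Edn1 they were Plvap (0.89), Myct1 (0.86), Procr (0.85), Them4 (0.84) and Nt5e (0.83), and within groups these stayed between 0.71 and 0.89. For Ece1 they were Mmrn2 (0.91), Camk4 (0.90), Mall (0.88), Nrarp (0.87) and Bmp4 (0.87), 0.76 to 0.94 within groups. For Ednra they were Bmper, Thbs2 and Apbb1ip (0.96 each), Col14a1 (0.95) and Cpxm1 (0.95), 0.75 to 0.82 within groups. For Ednrb they were Car5b (0.95), Cyp2j6 (0.94), F13a1 (0.94), Rgl1 (0.94) and Ifi204 (0.93), 0.87 to 0.90 within groups. No gene stood in the lists of more than 1 member.

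All log2 changes above are relative to a scaling that holds most genes level. Scaled by library totals alone, the median over all genes with AngII in 129S6/SvEvTac was -0.16 instead of 0.00, and 25.2% of calls were higher instead of 63.3%. In C57BL/6J with AngII 45.4% of calls were higher instead of 56.1%, and 65.2% instead of 53.6% for the difference of responses. The 4 genes kept their calls under that scaling, and the uncalled Ece1 value in C57BL/6J turned to -0.0574.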

How the data were processed

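Total RNA of descending thoracic aorta was sequenced in 16 libraries. Per the labels' protocols, the authors aligned reads to GRCm38 (mm10) with HISAT2 and used StringTie with Gencode for transcript abundance. The deposited table holds estimated counts per gene, already whole numbers. The submitters' processing notes list DESeq2 1.26.0 and R 3.6.2 without a role. GENCODE M21 (GRCm38) gave names and positions for 52489 genes.

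The main test was edgeR 4.0.16's robust quasi-likelihood test (R 4.3.3) over all 16 libraries, with 1 mean per group, TMM factors and the filterByExpr filter (minimum count 10), which kept 17125 genes. A Benjamini-Hochberg adjusted p below 0.05 over all genes made a call. Standard errors came from the log2 change and F statistic. Log2 CPM used a prior count of 2, and ratios of counts a pseudocount of 0.5. DESeq2 1.42.0 and limma 3.58.1 voom were alternatives. Scripts were tested on simulated data. No replicates were duplicates.

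Named beside the 4 genes were Edn2, Edn3, Ece2, Mme, Nos3, Klf2, Klf4 and up to 4 called genes by p per pathway list in each AngII comparison and their difference. The members and lists were chosen with earlier results of these data known.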

Additional observations from a re-analysis of the deposited data

Results flagged for a closer look

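Responses to AngII that differed between the strains by the interaction test (C57BL/6J minus 129S6/SvEvTac, log2) were 1.95 for Ednra, 0.88 for Klf4, 3.31 for Cma1, 2.90 for Mcpt4, 0.41 for Gna13, 0.59 for Arrb2, -0.80 for Cav1, -1.03 for Ptgis, 0.71 for Nfatc1 and 0.55 for Smad3. Those of Ednra, Klf4, Cav1 and Ptgis held in all 16 omissions of a library.

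Single libraries stood far from the other 3 of their group in 8 of 132 group checks, where chance gives about 1 in 20. C57BL/6J control replicate 5, the library with the high Edn1, also had Jun at 328 CPM (others 153 to 177), Nos3 at 50.9 CPM (others 39.0 to 40.3) and Gucy1a1 at 261 CPM (others 309 to 318). C57BL/6J control replicate 1 had Mcpt4 at 6.90 CPM (others 1.14 to 1.73). In 129S6/SvEvTac controls, replicate 4 had Mcpt4 at 3.06 CPM (others 7.60 to 8.19) and Prkca at 43.8 CPM (others 39.4 to 39.9), and replicate 3 was the only one with counts of Edn2, at 0.190 CPM. In 129S6/SvEvTac AngII, replicate 5 had Prkca at 70.4 CPM (others 58.4 to 59.3).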

How the results depend on the processing

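The cause of a change below was not tested unless the setting itself shows it. Scaling by library totals turned Ece1 with AngII in C57BL/6J to -0.0574. Without a filter, Edn1 between AngII groups lost its call (-1.07). DESeq2 called 2643 genes for the difference of responses, and Ednrb there (1.78) and between AngII groups (1.02). Limma voom turned Edn1 in C57BL/6J to 0.12, called Ednrb for the difference (1.90), dropped Edn1 between AngII groups (-0.88), and called 3324 genes with AngII in 129S6/SvEvTac, 2670 for the difference and 3209 between controls, against 2087, 1706 and 1783 in the main fit. With only the compared groups, Ece1 in 129S6/SvEvTac lost its call (0.83), Ednra (-0.55) and Ednrb (-0.76) gained one between controls, and 2772 genes were called there.

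With the adipocyte score as a term, Edn1 in C57BL/6J was 0.41, and Ednrb was 0.98 in C57BL/6J, uncalled, and -0.0061 in 129S6/SvEvTac. With the striated muscle score, Ednrb was called between AngII groups (1.16). Without C57BL/6J AngII replicate 1 and 129S6/SvEvTac AngII replicate 5 together, Edn1 in C57BL/6J was 0.0209, Edn1 between AngII groups was uncalled (-0.89), and 1049 genes differed in response. The 3 settings that follow were chosen after seeing the data. With the endothelial score, Ece1 was -0.29 in C57BL/6J, 0.40 (uncalled) in 129S6/SvEvTac, -0.69 (called) for the difference and -0.40 (called) between AngII groups, Edn1 was -0.12 in 129S6/SvEvTac and -0.83 (uncalled) between AngII groups, and 1353 genes were called with AngII in 129S6/SvEvTac. With the fibroblast score, Edn1 was 0.21 and Ednrb 0.97 (uncalled) in C57BL/6J, Ednra was -0.0239 in 129S6/SvEvTac and -0.66 (called) between controls, and Edn1 was -0.82 (uncalled) between AngII groups. Without C57BL/6J AngII replicates 1 and 5, Edn1 was 0.0221 in C57BL/6J and -0.98 (uncalled) between AngII groups, and 1027 genes differed in response.

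Replicate numbers were not shown to pair the samples. Over 7 same-numbered pairs of a strain, deviations from group means correlated at -0.06 to 0.15, above 0.1 in 2. Pairs of a strain with different numbers lay at -0.17 to 0.20, and 5 of 14 libraries correlated best with their own number. So few pairs cannot exclude a pairing. With the replicate block, Edn1 in C57BL/6J was 0.0320 and Ednrb in 129S6/SvEvTac -0.0216, Ednrb was called for the difference (1.96), between controls (-1.06) and between AngII groups (0.90), Ece1 was called between AngII groups (-0.66), and 6175, 1426, 1590, 1383 and 4459 genes were called in the 5 comparisons.

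Leaving out each library in turn moved Edn1 in C57BL/6J from -0.26 to 0.41, Ece1 there from -0.0236 to 0.0846, Ednra in 129S6/SvEvTac from -0.0390 to 0.39 and Ece1 there from 0.48 to 0.96. The differences of response ranged from 1.29 to 2.13 for Ednrb, called without C57BL/6J AngII replicate 3 or 129S6/SvEvTac AngII replicate 5, and from 1039 to 2990 genes (1076 without 129S6/SvEvTac AngII replicate 4, 1039 without its control replicate 2, 2990 without C57BL/6J AngII replicate 3). Between AngII groups Edn1 ranged from -1.27 to -0.73, Ednrb from 0.54 to 1.38 and Ece1 from -0.67 to -0.20. By longest transcript, TPM were 27.2 for Edn1 in C57BL/6J AngII, 6.91 and 10.02 for Ednra in C57BL/6J and 129S6/SvEvTac controls, and 152 and 149 for Ece1 in C57BL/6J control and AngII. The fit of the compared groups alone is the main fit for the difference of responses and was not run again.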
